A study of Homo sapiens with 20 samples.

Results

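The sites described here are all RAD21 peaks called in CHM13 or RPE-1 cells on hg38 chromosomes 1 to 22 and X, 88678 peaks of the 188806 in the 6 hg38 lists of the series. CHM13 cells, a line from a hydatidiform mole, had 73739 of them and RPE-1 cells, a human retinal pigment epithelial line, had 14939. An overlap of 1 bp or more divided them into 3 groups. The shared group held 14366 CHM13 peaks (19.5% of the CHM13 list), which met 14507 RPE-1 peaks. The CHM13-only group held 59373 peaks. The RPE-1-only group held 432 peaks, 2.89% of the RPE-1 list. The groups are therefore very unequal in size, and the RPE-1 list was almost wholly contained in that of CHM13 cells. The RPE-1-only share depended on the rule, being 12.8% when centres had to lie within 250 bp, 41.3% when 50% of both peaks had to overlap, and 77.3% when the CHM13 list was cut to its 14939 widest peaks.

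RAD21 is the kleisin subunit that closes the cohesin ring around DNA. A ring carries either SA1, encoded by STAG1, or SA2, encoded by STAG2, and both SA proteins contact the zinc-finger protein CTCF. Cohesin holds sister chromatids together and extrudes chromatin loops that are often halted at CTCF sites, and it is also found at enhancers and promoters of active genes.

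The series has 20 ChIP-seq libraries of untreated cells, covering RAD21, SA1, SA2 and total chromatin with 3 replicates apiece in CHM13 cells and 2 in RPE-1 cells. RAD21 was precipitated with antibody ab992 in CHM13 cells and ab154769 in RPE-1 cells, while the SA1 and SA2 antibodies were common to both lines. Chromatin was sheared with a Covaris instrument in CHM13 cells and a Bioruptor bath in RPE-1 cells, and sequencing depth also differed. The study's methods state added Drosophila chromatin, as an internal control, for CHM13 cells only. Cell line, antibody, shearing, added chromatin, depth and replicate number cannot be told apart in any value below. Each list pools its replicates and gives only positions. No spread between replicates, test or p-value could therefore be given, and the 95% intervals cover counting error over peaks only, although neighbouring peaks are not independent. A list of positions holds no expression values, so the cell type labels could not be checked against marker genes.

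The sequences below show what lay under the centre of a shared, a CHM13-only and an RPE-1-only site. Capitals mark a match to the CTCF core, written here as CCA, 2 unspecified bases, AG, 2 unspecified bases and GGC, on either strand. Windows of 150 bases around the peak centre are given for the 2 widest peaks of each group that lay outside coding genes, overlapped SA1 and SA2 in the line or lines of the group, and held the core. These examples were chosen after their values had been seen. Stretches of 30 bases show both matches near the centre of the shared peak at the STAG1 start. The last sequence is centred on the CHM13 RAD21 peak at the locus that the study used as a positive control in ChIP-PCR. It covers part of that locus, at which all 6 lists had 1 peak. All are hg38, plus strand, 5′ to 3′.
shared, chr11:57249832-57249981: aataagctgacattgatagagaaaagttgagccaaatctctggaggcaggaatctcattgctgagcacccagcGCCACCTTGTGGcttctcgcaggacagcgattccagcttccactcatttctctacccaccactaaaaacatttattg
shared, chr10:120423399-120423548: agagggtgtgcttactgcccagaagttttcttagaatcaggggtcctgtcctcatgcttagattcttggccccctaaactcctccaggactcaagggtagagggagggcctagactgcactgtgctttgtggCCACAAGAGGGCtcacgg
CHM13-only, chr12:19778841-19778990: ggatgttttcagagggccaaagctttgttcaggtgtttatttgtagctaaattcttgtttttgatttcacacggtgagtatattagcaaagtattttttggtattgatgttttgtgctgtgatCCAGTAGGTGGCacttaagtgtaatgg
CHM13-only, chr21:27564832-27564981: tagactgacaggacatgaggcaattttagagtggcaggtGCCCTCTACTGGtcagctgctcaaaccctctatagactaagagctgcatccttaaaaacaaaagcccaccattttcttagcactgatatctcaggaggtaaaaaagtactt
RPE-1-only, chr2:131674048-131674197: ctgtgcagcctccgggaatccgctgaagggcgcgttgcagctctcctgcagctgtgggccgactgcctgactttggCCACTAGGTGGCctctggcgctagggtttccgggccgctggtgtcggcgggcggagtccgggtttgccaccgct
RPE-1-only, chr3:168467429-168467578: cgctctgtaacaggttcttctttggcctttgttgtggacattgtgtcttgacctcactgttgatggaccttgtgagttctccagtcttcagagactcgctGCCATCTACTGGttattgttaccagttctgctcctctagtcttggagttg
STAG1, first match, chr3:136752340-136752369: tcctaacccGCCATCTGGTGGcattttcca
STAG1, second match, chr3:136752398-136752427: gtccggaccGCCCTCTGCTGGccgcggtgc
control locus, chr20:1503770-1503919: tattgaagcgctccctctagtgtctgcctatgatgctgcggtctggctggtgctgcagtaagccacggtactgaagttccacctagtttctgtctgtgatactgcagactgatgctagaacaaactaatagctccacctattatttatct

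The core lay 4 bp and 63 bp from the peak centre along the plus strand in the shared examples, 54 bp and -30 bp in the CHM13-only examples, and 7 bp and 31 bp in the RPE-1-only examples. Of 432 RPE-1-only peaks, 2 met the conditions of this selection, against 606 of 14366 shared and 1073 of 59373 CHM13-only peaks. The SA lists that a peak had to meet differed between the groups, so these counts are not on equal terms. The window printed for the control locus held no exact core. RAD21 was found at the locus in both lines, with a CHM13 peak of 890 bp and an RPE-1 peak of 479 bp. An exact match is a description of the letters and not evidence that CTCF was bound.

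Peak width, the only property of a single peak in the lists, differed between the groups. The median was 808 bp (805 to 811 bp) for shared CHM13 peaks and 685 bp (682 to 688 bp) for CHM13-only peaks, a difference of 123 bp (119 to 127 bp). It was 52 bp with an overlap of 50% of both peaks and 56 bp with lists of equal length. The middle 50% of widths ran from 715 to 962 bp in the shared group and from 531 to 906 bp in the CHM13-only group, so the 2 distributions overlapped widely. RPE-1-only peaks were narrow, with a median of 372 bp (356 to 381 bp) against 445 bp (443 to 448 bp) for the RPE-1 peaks that met a CHM13 peak. Peaks of 1 kb or more made up 22.7% of shared CHM13 peaks, 19.8% of CHM13-only peaks and, in the narrower RPE-1 list, 0.627% of shared RPE-1 peaks and 0.232% of RPE-1-only peaks (1 of 432). A wide peak meets another list more readily under an overlap of 1 bp, so width is not independent of the rule that formed the groups.

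**Figure D1:**
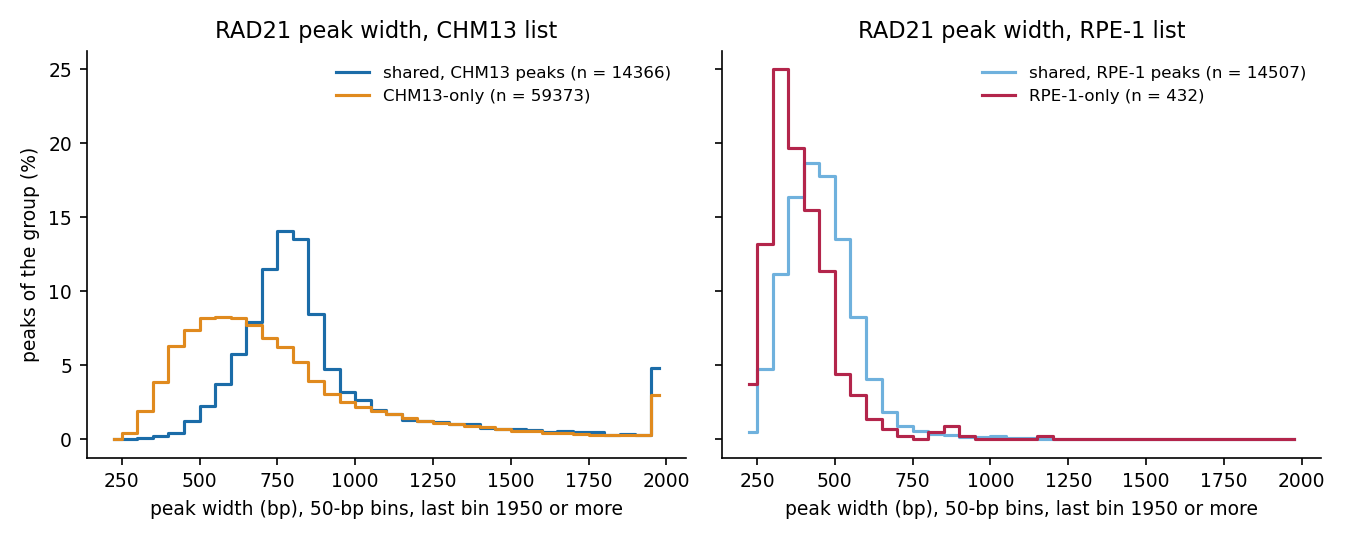
Distribution of RAD21 peak width in bp (50-bp bins, the last holding all wider peaks) as a percentage of each group, for the CHM13 list on the left and the RPE-1 list on the right. The shared CHM13 peaks form a narrow mode around their median of 808 bp, whereas CHM13-only peaks spread to smaller widths, and the RPE-1-only peaks (median 372 bp) lie to the left of the other RPE-1 peaks (median 445 bp).

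Within the CHM13 list the relation with width was not a steady rise. The peaks were divided by width into 10 classes of equal number. In the narrowest class (253 to 447 bp), 1.59% (1.33 to 1.90%) met an RPE-1 RAD21 peak. That share climbed to 38.2% (37.1 to 39.3%) in class 7 (787 to 862 bp). It was lower again in wider peaks, at 19.8% in class 9 and 23.5% in the widest class, which held peaks of 1329 to 14014 bp. CHM13 peaks of intermediate width were thus those most often found in RPE-1 cells. In the RPE-1 list, 92.2% of the narrowest class and 98.6% of the widest met a CHM13 peak.

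Where both lines had a peak, the peaks lay almost on top of each other. For the 14231 shared CHM13 peaks that met a single RPE-1 peak, the centres were a median of 34 bp apart (quartiles 15 and 72 bp), and 81.7% were within 100 bp. The CHM13 peak was the wider one in 99.4% of these pairs, by a median factor of 1.83, and it enclosed the RPE-1 peak completely in 97.8%. Widths of RPE-1 peaks depended on the genome build, with a median of 443 bp for all RPE-1 RAD21 peaks on hg38 and 509 bp on CHM13 v1.0, against 724 and 725 bp for CHM13 peaks. The median of RPE-1-only peaks was 441.5 bp on CHM13 v1.0. The widths of paired peaks were loosely related (Spearman 0.373 across 14231 pairs, a description only, as the pairs share their lists and genome). A further 135 CHM13 peaks spanned more than 1 RPE-1 peak, while 0 RPE-1 peaks spanned more than 1 CHM13 peak. Sites that were not shared were seldom near misses. CHM13-only peaks lay a median of 60.1 kb from the nearest RPE-1 RAD21 peak, with 632 of 59373 (1.06%) within 1 kb. RPE-1-only peaks lay a median of 57.9 kb from the nearest CHM13 RAD21 peak, 10 of 432 within 1 kb and 155 (35.9%) beyond 100 kb.

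SA1 and SA2, whose peaks did not enter the grouping, separated the groups most clearly. Both SA subunits of CHM13 cells overlapped 93.2% (92.8 to 93.6%) of shared CHM13 peaks but 31.0% (30.6 to 31.4%) of CHM13-only peaks. The difference was 62.2 percentage points (61.7 to 62.8) and had the same sign on 23 of 23 chromosomes. At the other extreme, 2.26% of shared peaks and 46.3% of CHM13-only peaks met neither SA1 nor SA2 of CHM13 cells. CHM13 RAD21 peaks without a called SA peak thus numbered 27504 in the CHM13-only group and 324 in the shared group. Of all 73739 CHM13 RAD21 peaks, 59373 were CHM13-only. Where only 1 SA subunit was called at a CHM13-only peak it was more often SA2 (17.0%, 10090 peaks) than SA1 (5.69%, 3379 peaks). In the shared group these shares were 2.27% and 2.25%. The CHM13 SA2 list was itself longer, with 44374 peaks against 38153 for SA1.

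A wider peak also has more room to meet an SA peak, so the comparison was repeated within the 10 classes of CHM13 width. The share with both SA subunits was higher in the shared group in 10 of 10 classes. In class 7 it was 99.2% (98.8 to 99.5%) for shared and 45.7% (44.3 to 47.2%) for CHM13-only peaks. In the narrowest class it was 23.9% (17.1 to 32.4%) and 4.59% (4.13 to 5.10%). The gap between the groups was thus present at equal width.

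**Figure D2:**
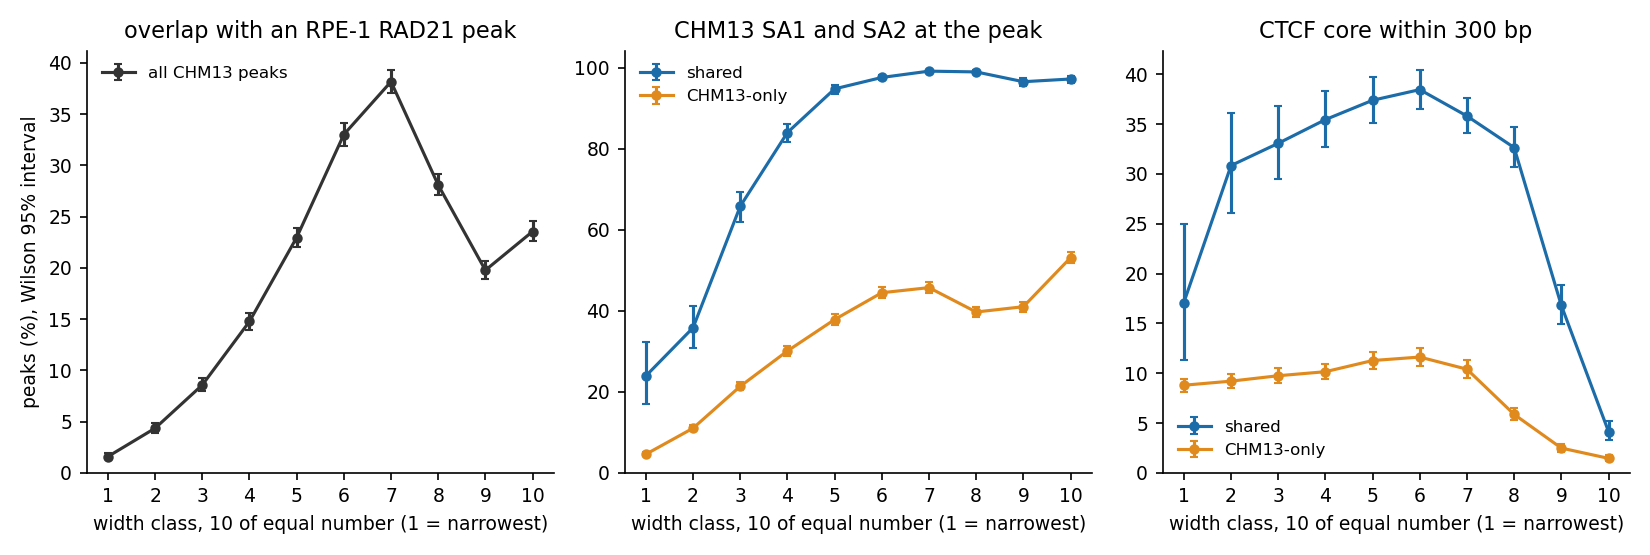
CHM13 RAD21 peaks in 10 width classes of equal number (1 is the narrowest, 253 to 447 bp). Points give the percentage of peaks that met an RPE-1 RAD21 peak (left), that overlapped CHM13 SA1 and SA2 (middle) and that held the CTCF core within 300 bp (right), with Wilson 95% intervals. The left curve peaks at 38.2% in class 7, and shared peaks lie above CHM13-only peaks in 10 of 10 classes in the other panels.

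The SA lists of RPE-1 cells were compared in the same way. Of RPE-1 RAD21 peaks that met a CHM13 peak, 62.3% (61.5 to 63.1%) overlapped RPE-1 SA1 or SA2, and of RPE-1-only peaks 34.5% (30.2 to 39.1%) did, which is 149 of 432. The difference was -27.8 percentage points (-32.2 to -23.2), and the share was higher in the RPE-1-only group on 0 of 23 chromosomes. It shrank to -5.27 points when shared peaks needed centres within 250 bp and to -8.21 with an overlap of 50%. RPE-1-only peaks were also narrower. In 10 classes of RPE-1 width the share was higher in the shared group in 9, the exception being class 5 (63.3% against 69.2% of 26 RPE-1-only peaks). With shared peaks weighted to the widths of RPE-1-only peaks, a comparison added after the data had been seen, the difference was -12.2 points (46.7% against 34.5%). RPE-1-only peaks overlapped both SA subunits of RPE-1 cells at 55 sites (12.7%). These lists were shorter than those of CHM13 cells, with 10707 SA1 and 6389 SA2 peaks, which bounds any share taken from them. They also depended on the genome build, since RPE-1 SA2 had 9579 peaks on CHM13 v1.0. On that build 482 RPE-1 RAD21 peaks had no CHM13 counterpart, and 36.3% of them met RPE-1 SA1 or SA2, against 63.6% of the others.

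Overlap with the SA lists of the other line was also counted. Even where RPE-1 RAD21 was called, 37.4% of shared CHM13 peaks met neither RPE-1 SA1 nor SA2. Whether SA was absent or uncalled at these sites was not tested. The overlaps may therefore miss sites that were absent from 1 RAD21 list only. Of the 59373 CHM13-only peaks, 2385 (4.02%, 3.86 to 4.18%) met an SA1 or SA2 peak of RPE-1 cells, 2168 of them SA1. Among the 432 RPE-1-only peaks, 45 (10.4%, 7.88 to 13.7%) met an SA1 or SA2 peak of CHM13 cells and 23 met both. The other 387 RPE-1-only peaks had none of the 3 cohesin subunits called in CHM13 cells.

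SA1 and SA2 peaks overlapped between the lines in the same lopsided way as RAD21. An RPE-1 peak of the same subunit was met by 27.2% (26.8 to 27.7%) of CHM13 SA1 peaks, 19.5% (19.2 to 19.8%) of RAD21 peaks and 14.2% (13.8 to 14.5%) of SA2 peaks. The order followed the ratio of list lengths, SA1 having the closest lengths and SA2 the most distant. RPE-1 peaks without a CHM13 peak of the same subunit numbered 270 of 10707 for SA1, 97 of 6389 for SA2 and 432 of 14939 for RAD21. The shares that did meet one were thus alike, at 97.5%, 98.5% and 97.1%. The SA1 and SA2 antibodies were common to both lines, but the other differences between the lines remained, and the part of the RAD21 antibody was not tested.

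Position relative to genes distinguished the groups at a distance rather than at the start itself. Peak centres lay within 1 kb of a protein-coding gene start in 6.90% of shared peaks, 7.43% of CHM13-only peaks and 7.41% of RPE-1-only peaks. The shared group was lower than the CHM13-only group by 0.528 percentage points (interval of shared minus CHM13-only -0.984 to -0.0535), with 7 of 23 chromosomes having the opposite sign. With starts of all annotated genes the difference turned to 0.679 points and with a limit of 5 kb to 3.79 points, so no direction is given for gene starts. For RPE-1-only against shared peaks the interval, -1.65 to 3.40 points, included 0. That difference too went with the rule, at 5.30 points with an overlap of 50%, 12.1 with centres within 250 bp and -10.2 with lists of equal length.

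Farther out the groups parted. Between 1 and 10 kb from a start lay 18.6% (18.0 to 19.3%) of shared peaks, 10.1% (9.88 to 10.4%) of CHM13-only peaks and 10.9% (8.28 to 14.2%) of RPE-1-only peaks. Beyond 100 kb lay 21.2% (20.5 to 21.9%), 39.5% (39.1 to 39.9%) and 53.5% (48.8 to 58.1%). The median distance was 30.8 kb for shared, 65.5 kb for CHM13-only and 115 kb (89.4 to 147 kb) for RPE-1-only peaks. Beyond 1 kb, shared RAD21 sites thus lay nearer to coding gene starts than CHM13-only sites under the overlap rule of 1 bp. The excess of shared over CHM13-only peaks at 1 to 10 kb was present on 23 of 23 chromosomes. These distance classes and medians were not recomputed under another overlap rule. More than 1 Mb from any coding start lay 55 of the 432 RPE-1-only peaks (12.7%), against 0.801% of shared and 1.89% of CHM13-only peaks. How many of these far peaks lay in or beside centromeres was not counted, so their distance is not read as a relation to genes. Centres were outside coding genes for 67.4% of RPE-1-only, 51.6% of shared and 46.8% of CHM13-only peaks.

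**Figure D3:**
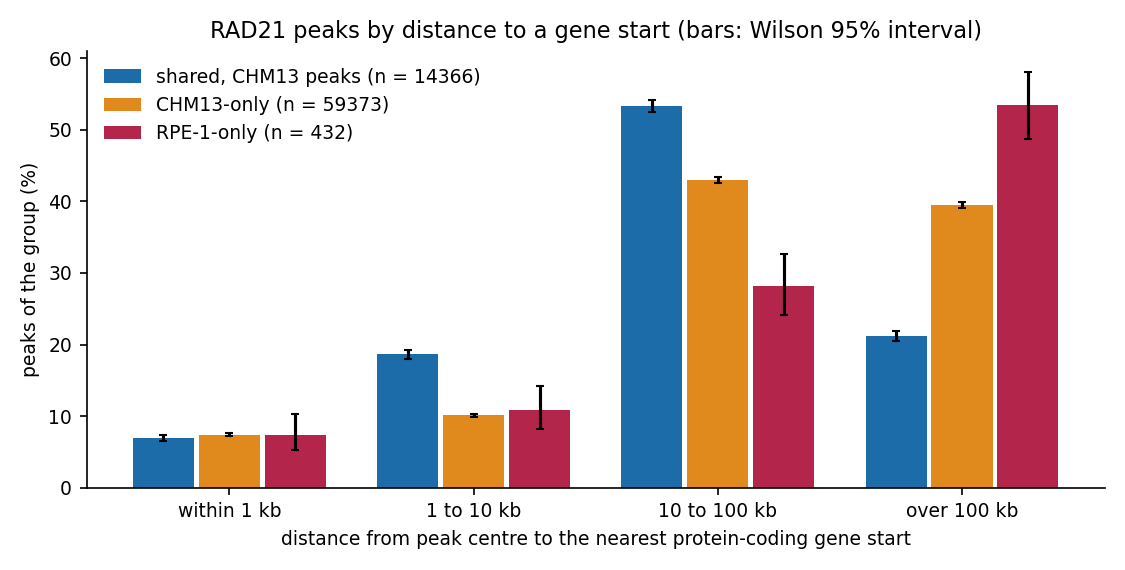
Percentage of each group of RAD21 peaks by distance from the peak centre to the nearest protein-coding gene start, with Wilson 95% intervals as error bars. Within 1 kb the groups stand at 6.90, 7.43 and 7.41%, an order that changes with the overlap rule, the shared group is highest from 1 to 100 kb, and the RPE-1-only group is highest beyond 100 kb (53.5%).

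The CTCF core was also unevenly spread. It occurred within a 300-bp window at the centre of 29.8% (29.1 to 30.6%) of shared peaks, 19.4% (16.0 to 23.4%) of RPE-1-only peaks and 8.10% (7.89 to 8.32%) of CHM13-only peaks. Of all 300-bp tiles of the same chromosomes, 0.747% held it. Shared exceeded CHM13-only peaks by 21.7 percentage points (20.9 to 22.5), on 23 of 23 chromosomes and in 10 of 10 width classes. Between RPE-1-only and shared peaks the difference was -10.4 points (-13.9 to -6.31) with shared windows centred on CHM13 peaks and -13.9 (-17.4 to -9.82) with windows centred on RPE-1 peaks throughout. The former turned to 24.9 when the CHM13 list was cut to its widest peaks. With the core lengthened by a following AG the shares were 9.93, 6.71 and 2.28%, against 0.117% of tiles. The windows are of fixed length but sit on the peak centre, and for the same shared sites centred on the RPE-1 peaks the share was 33.3%.

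Matches were concentrated at the centres. In the 50 bp on either side there were 116 and 120 matches per 1000 shared peaks, 30.7 and 30.6 per 1000 CHM13-only peaks, and 90.3 and 62.5 per 1000 RPE-1-only peaks. At 975 bp from the centre there were 2.09 per 1000 shared and 1.46 per 1000 CHM13-only peaks. In the widest class of CHM13 peaks the core within 300 bp was found in 4.15% of shared and 1.46% of CHM13-only peaks, and gene starts lay within 1 kb of 19.5% and 19.3%. The widest peaks of either group thus seldom held the core in their central 300 bp and were rich in gene starts. The rest of these wide peaks was not searched for this share. GC content of the windows had a median of 49.3% in shared, 48.7% in RPE-1-only and 42.7% in CHM13-only peaks, and its part in the core shares was not tested.

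**Figure D4:**
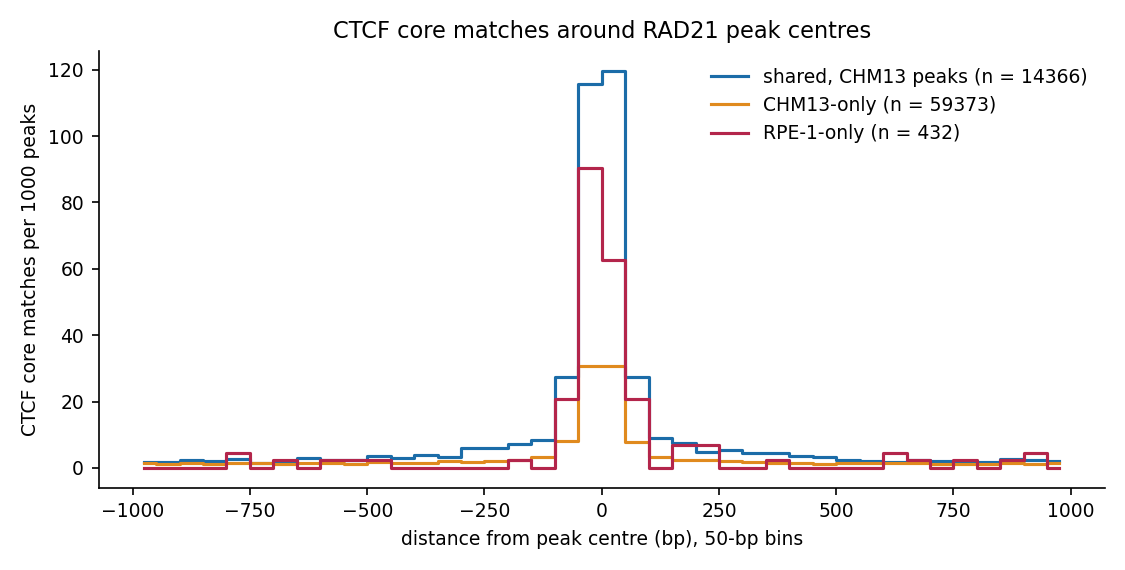
Exact CTCF core matches per 1000 peaks in 50-bp bins of distance (bp) from the peak centre. Matches crowd within 100 bp of the centre in the 3 groups, higher in shared (116 and 120 per 1000 in the central bins) than in CHM13-only peaks (30.7 and 30.6 per 1000), and the RPE-1-only curve rests on 432 peaks.

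The share of CHM13 RAD21 peaks that were shared varied among chromosomes from 13.4% (12.4 to 14.4%) on chromosome 4 to 33.6% (31.3 to 36.0%) on chromosome 19. Chromosomes 22 (29.1%), 17 (28.5%) and 20 (26.9%) followed chromosome 19, while 13 (14.4%) and 18 (14.9%) lay next to chromosome 4. The share went with the density of protein-coding gene starts (Spearman 0.871 and Pearson 0.847 over 23 chromosomes), a description only, since the chromosomes share the libraries and also differ in base composition. RPE-1-only peaks made up between 1.00% (chromosome 16, 5 peaks) and 5.67% (chromosome 13, 17 peaks) of the RPE-1 list.

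**Figure D5:**
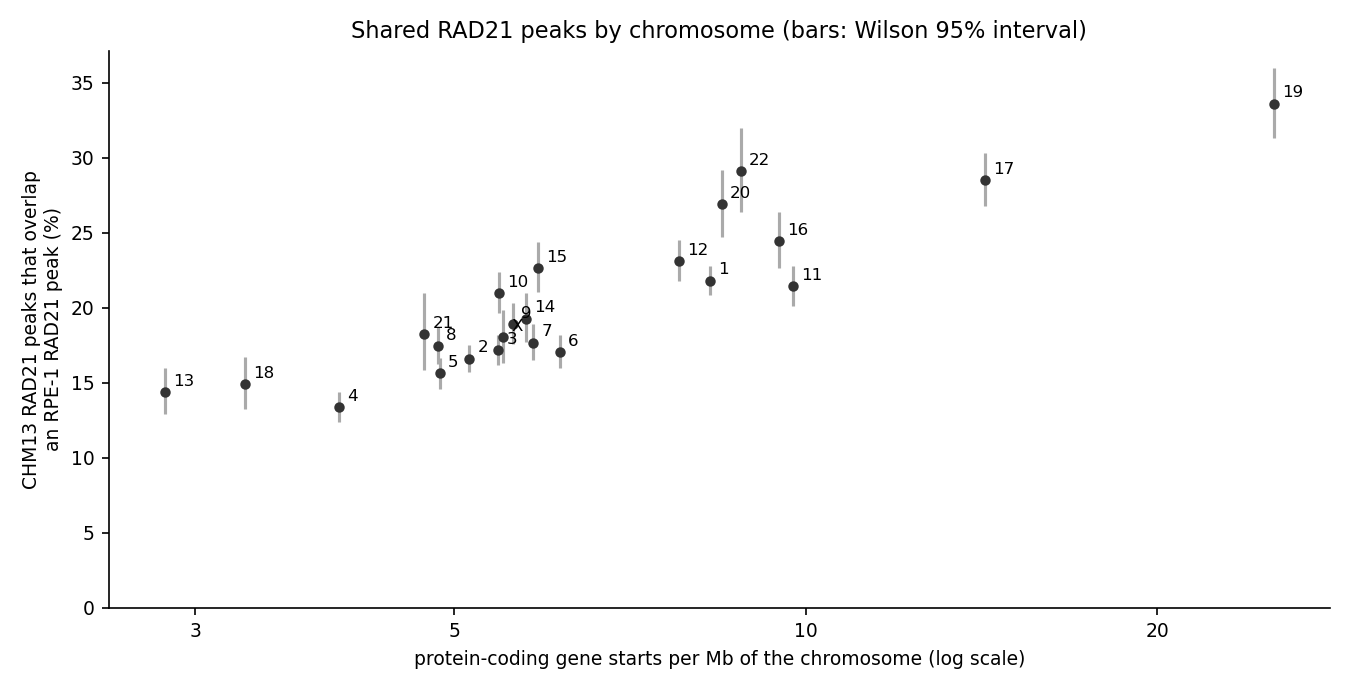
Percentage of CHM13 RAD21 peaks that met an RPE-1 RAD21 peak against protein-coding gene starts per Mb (log scale), 1 point per chromosome with its Wilson 95% interval. Chromosome 4 is lowest at 13.4% and the gene-dense chromosome 19 highest at 33.6%.

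At named genes, the shared sites with SA1 and SA2 in both lines and a centre within 1 kb of a start numbered 199 of 14366. The 8 widest by the smaller of their widths were at ALCAM, THBS1, DIP2B, ABTB2, TOR2A, HS3ST1, STAG1 and FAT1. ALCAM (ENSG00000170017), an adhesion molecule of the immunoglobulin family, had a CHM13 peak of 5736 bp at chr3:105364888-105370623 and an RPE-1 peak of 1858 bp, with its centre 847 bp into the gene. THBS1 (ENSG00000137801), which encodes the matrix glycoprotein thrombospondin-1, had peaks of 3858 and 1646 bp, the CHM13 centre lying at -567 bp from its start. FAT1 (ENSG00000083857), an atypical cadherin, had the broadest CHM13 peak of these 8, 6568 bp, over an RPE-1 peak of 1031 bp. HS3ST1 (ENSG00000002587), a heparan sulfate sulfotransferase, was the exception in which the RPE-1 peak was the wider one (1265 against 1189 bp). The STAG1 start (ENSG00000118007) carried a CHM13 peak of 2469 bp and an RPE-1 peak of 1096 bp, and it was the only one of the 8 with the CTCF core in its central 300 bp.

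CHM13-only sites with SA1 and SA2 in CHM13 cells and a centre within 1 kb of a start numbered 716 of 59373. Shared sites had to meet the SA lists of both lines, so the 2 counts are not on equal terms. The 8 widest CHM13-only sites were 5078 to 6429 bp long. They lay at PCDH18, IRF2BP2, FOXO3, a gene known in the annotation only by the identifier ENSG00000289051, ZMIZ1, ANGPT1, DUSP6 and SMAD7. FOXO3 (ENSG00000118689), a forkhead transcription factor, had a peak of 5956 bp at chr6:108557572-108563527, with its centre 715 bp into the gene. DUSP6 (ENSG00000139318), a phosphatase that acts on ERK, had one of 5156 bp, and SMAD7 (ENSG00000101665), an inhibitor of TGF-β signalling, one of 5078 bp that met 3 SA1 and 2 SA2 peaks. ANGPT1 (ENSG00000154188), a ligand of the TIE2 receptor, was the only one of these 8 sites with an SA peak in RPE-1 cells, of SA1. None of these 8 sites held the core in its central 300 bp.

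RPE-1-only sites with both RPE-1 SA subunits and a centre within 1 kb of a start numbered 2 of 432. NALF1 (ENSG00000204442), which encodes an auxiliary factor of the NALCN channel, had a peak of 502 bp, centred at -898 bp from its start, at chr13:107868143-107868644. SOX15 (ENSG00000129194), a transcription factor of the SOX family, had a peak of 430 bp over a coding exon at chr17:7589264-7589693. Neither held the core, and CHM13 cells had 0 SA1 and 0 SA2 peaks at both.

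For gene counts, a peak was taken to be at a start when any part of it, not its centre, lay within 1 kb. Over all 19970 protein-coding genes, 6.8% had a shared RAD21 peak at the start, 26.7% a CHM13-only peak and 0.195% (39 genes) an RPE-1-only peak. The 39 RPE-1-only peaks were 242 to 1179 bp wide, and 6 of them met RPE-1 SA1 or SA2.

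Gene lists were read against these shares. Among 22 mesenchymal and extracellular matrix genes, 6 had a shared peak (27.3%, 13.2 to 48.2%), 14 a CHM13-only peak (63.6%, 43.0 to 80.3%) and 0 an RPE-1-only peak. The fibrillar collagen genes COL1A1 and COL1A2 had shared peaks, 3892 and 4014 bp wide in CHM13 against 904 and 639 bp in RPE-1. COL3A1 and COL5A1, also collagen genes, had CHM13-only peaks of 5028 and 3006 bp. The 21 CHM13 RAD21 peaks at the starts of this list had a median width of 3919 bp (3006 to 5028 bp), against 894 bp (881 to 909 bp) for the 6122 CHM13 peaks at all coding starts, and 15 of them met both SA subunits. At the 6 genes with a shared peak, CHM13 peaks were 3010 to 6999 bp wide and RPE-1 peaks 312 to 936 bp. These widths leave no room for an overlap of 50% of both peaks. That setting, tried after these counts had been seen, therefore had to give 0 shared genes here. It labelled peaks at 5 genes of the list as RPE-1-only.

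Of 22 genes of the pigment epithelium and eye, 19 had no RAD21 peak at the start (86.4%, 66.67 to 95.25%). Over all coding genes 66.76% had none, a share at the edge of that interval but within it. In the list, 1 gene had a shared peak, 0 a CHM13-only peak (an upper limit of 14.9%) and 2 an RPE-1-only peak (9.09%, 2.53 to 27.8%). The RPE-1-only peaks were at LRAT, the enzyme that esterifies retinol in the visual cycle (400 bp), and MERTK, the receptor with which pigment epithelium takes up outer segments (474 bp). Neither peak met SA1 or SA2 in RPE-1 cells. Within 5 kb, a limit tried after these counts had been seen, 3 genes had a shared, 3 a CHM13-only and 2 an RPE-1-only peak. TTR, which encodes the thyroxine and retinol carrier transthyretin, had the shared peak, 1044 bp in CHM13 and 541 bp in RPE-1 cells. Of 22 trophoblast genes, 1 had a shared, 4 a CHM13-only and 1 an RPE-1-only peak, the last at EOMES, a T-box transcription factor (316 bp, without SA). GATA2, TEAD4 and TP63, which encode transcription factors, had CHM13-only peaks of 530, 724 and 2125 bp, and the imprinted gene PEG10 had a shared peak of 3137 bp in CHM13 and 314 bp in RPE-1 cells.

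Of 16 genes of cohesin and its regulators, 3 had a shared peak (interval 6.59 to 43.0%), 4 a CHM13-only peak (10.2 to 49.5%) and 0 an RPE-1-only peak. STAG1, STAG2 and PDS5A, a regulatory subunit, had the shared peaks. For STAG2 the CHM13 peak was 979 bp and the RPE-1 peak 294 bp. NIPBL, the loader of cohesin, and WAPL, which releases it, had CHM13-only peaks of 942 and 933 bp that met no SA peak. Among 16 epithelial genes, 3 had a CHM13-only peak and 0 a shared or RPE-1-only peak. KRT8 and KRT18, which encode keratins, had a common CHM13 peak of 1297 bp between their starts.

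Gene families gave a mixed picture. Of 53 clustered protocadherin genes, 2 had a shared peak, 23 (43.4%, 31.0 to 56.7%) a CHM13-only peak and 2 an RPE-1-only peak, at PCDHA13 (337 bp) and PCDHGB7 (577 bp, with RPE-1 SA1). Within the family, the first CHM13-only peaks in the list were at PCDHB4, PCDHGA2, PCDHB2 and PCDHB3, of 392, 418, 529 and 497 bp. Ribosomal protein genes had shared peaks at 3 and CHM13-only peaks at 25 of 80 starts (31.2%, 22.2 to 42.1%), and zinc-finger genes named ZNF at 24 and 138 of 509 (27.1%, 23.4 to 31.1%), both close to the shares over all coding genes. Among 39 HOX genes 2 had a shared and 5 a CHM13-only peak. Olfactory receptor genes, most of which are silent outside the nose, had 2 shared and 2 CHM13-only peaks at 415 starts (0.482% each). Within 5 kb these counts rose to 16 shared and 9 CHM13-only for HOX genes and to 8 and 26 for olfactory receptor genes, while over all coding genes they went from 1358 to 2746 shared and from 5334 to 7291 CHM13-only.

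CHM13-only peaks were in places densely grouped. The 5 bins of 100 kb with the most such peaks held 19 to 21 each, and no coding gene starts within any of them. The share of all bins without a coding gene start is not given here, so this describes the 5 bins only. The densest, chr1:172900001-173000000, held 21 CHM13-only peaks and 0 RPE-1 peaks, 101 kb from the start of TNFSF18, a cytokine of the TNF family. Bins overlapping CDC42EP3, MAML2 and ETS1 held 19 each with 0 RPE-1 peaks. A further bin with 19 CHM13-only peaks and 1 RPE-1 peak lay 214 kb from the start of FN1, the fibronectin gene.

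Of the bins with RPE-1-only peaks, 389 bins held 1, 20 bins held 2 and 1 bin held 3. This group has 432 peaks against 59373 CHM13-only peaks, so its bin counts cannot be compared directly with those of CHM13-only peaks. Whether RPE-1-only peaks were more grouped than evenly placed peaks was not tested. The bin with 3 lay on chromosome 8, 56.6 kb from the start of MCPH1, a gene of chromosome condensation, and had 0 CHM13 peaks. Bins with 2, taken in order of position, included 1 overlapping DAB1, an adaptor of reelin signalling, on chromosome 1. The next 3 were at 123600001, 124300001 and 143200001 on the same chromosome, 656 to 3164 kb from any coding gene start. CHM13 RAD21 peaks were present in those 3 bins too, at 2, 1 and 6. Whether the bins lie in centromeric or other repeated sequence, where reads are hard to place, was not examined.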

How the data were processed

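ChIP-seq peak lists of RAD21, SA1 and SA2 in CHM13 and RPE-1 cells were used. The files the authors deposited hold start and end positions of peaks in bp, with no height, count or p-value. According to the study's methods, reads were aligned with bwa mem and filtered with samtools, peaks were called per replicate with macs, replicates were merged with reduce, and loci in a single replicate were dropped. These steps are stated for CHM13 v1.0. Settings for hg38 are not given in the sources used here.

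Peaks on chromosomes 1 to 22 and X were compared by an overlap of 1 bp or more. Gene starts came from GENCODE 44 protein-coding genes, and distances were taken from peak centres, except that gene counts used any overlap with 1 kb around the start. Analyses used Python 3.11.15, numpy 2.4.6, scipy 1.17.1 and matplotlib 3.10.9 and were checked on simulated data. Shares have Wilson 95% intervals, differences of shares Newcombe intervals and medians exact binomial intervals. The CTCF core was searched as exact letters. Read depth is not part of the lists and was not used. Sites were named by a rule: the 8 widest peaks per group within 1 kb of a start that met both SA subunits, the 5 fullest bins of 100 kb, list genes with RPE-1-only peaks and up to 4 others of a list. The groups, lists and rule were chosen with earlier results of these data known. The alternatives concerned overlap, list length, joining, width, chromosomes, build, SA rule, gene set, distance, motif and window.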

Additional observations from a re-analysis of the deposited data

Results flagged for a closer look

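RAD21 peaks were also called on sequences of hg38 other than chromosomes 1 to 22, X and Y, which entered no comparison. The CHM13 list had 103 such peaks and the RPE-1 list 49. They were noted because they lie outside the sequences compared. No control list was used, and whether these peaks correspond to sites on the named chromosomes was not tested.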

How the results depend on the processing

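No paired analysis was possible because each list pools its replicates, and for the same reason no replicate could be left out. Of 69 values recomputed with 1 setting changed, 29 moved by less than their interval, 37 moved by more and 3 reversed. In the values that follow, differences of shares are in percentage points, and the cause of each move was not tested unless the setting states it.

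With an overlap of 50% of both peaks, 11.9% of CHM13 peaks were shared and 41.3% of RPE-1 peaks were RPE-1-only. The width difference was 52 bp, and shared minus CHM13-only was -2.96 for gene starts, 54.9 for both SA subunits and 27.3 for the CTCF core. RPE-1-only minus shared was 5.30 for gene starts and -8.21 for RPE-1 SA. With centres within 250 bp these values were 17.7%, 12.8%, 101 bp, -2.35, 60.5, 24.8, 12.1 and -5.27, in the same order. With the CHM13 list cut to the length of the RPE-1 list, the shared and RPE-1-only shares were 21.7% and 77.3%, the width difference 56 bp, both SA subunits 50.1 and the core 8.20, and RPE-1-only minus shared was -10.2 for gene starts, -12.2 for RPE-1 SA and 24.9, reversed, for the core. That setting keeps the widest CHM13 peaks, and the widest class seldom held the core in its central 300 bp.

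With peaks closer than 1 kb joined, 20.5% of CHM13 peaks were shared, and shared minus CHM13-only was 61.0 for both SA subunits and 20.2 for the core. With peaks of 400 bp or wider, 13.8% were shared and 1.78% RPE-1-only, and the differences were 59.8 for both SA subunits, 20.6 for the core and -19.7 for RPE-1 SA. On CHM13 v1.0, 20.8% were shared. Shared minus CHM13-only for gene starts reversed to 0.679 with all annotated genes and to 3.79 within 5 kb. With either SA subunit in CHM13 cells the difference was 44.1, and with both in RPE-1 cells it was -20.3. Weighting shared RPE-1 peaks to the widths of RPE-1-only peaks, added after the data had been seen, gave -12.2 for RPE-1 SA. The longer core gave 7.65 and, for RPE-1-only minus shared, -3.21, and a window of 150 bp gave 19.4 for shared minus CHM13-only. Leaving out chromosome X moved none of the 9 results by more than its interval.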
